A study of Mus musculus with 9 samples.

Results

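The transcription factor NRF2 (gene Nfe2l2), the proteins that hold it in check or compete with it, its small Maf partners and a pair of its target genes were followed in RNA-seq libraries of MC38 cells, a mouse colon carcinoma line. The members were taken by gene symbol, as Nfe2l2, Keap1, Cul3, Bach1, Maff, Mafg, Mafk, Nqo1 and Osgin1. They made up 9 of the 16509 genes in the deposited expression table, and 9 of 9 passed the filter on low counts that left 11949 genes for the test. The 9 libraries fall into 3 groups of 3. Ctrl cells received vehicle only, which the sample labels call DMSO and the study's figure legend calls PBS. Cu-Cys cells received the copper-cystine copolymer, a coordination particle of copper ions and cystine without enzyme or targeting peptide. Cadict cells received the full nanodrug, in which the same copper-cystine particle also carries glucose oxidase (GOx, an enzyme that consumes glucose) and GE11, a peptide directed at the EGF receptor. The labels give no dose or exposure time for these libraries, and they do not say that the 3 libraries of a group came from separate cultures. The study describes its cell experiments in general as independently repeated, without tying these libraries to separate cultures, so the p-values measure the spread between these libraries, which may be technical in part.

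NRF2 is made continuously, and in unstressed cells it is bound by KEAP1, which hands it to the ubiquitin ligase scaffold CUL3 for destruction. KEAP1 carries reactive cysteines that respond to electrophiles and oxidants, and when they are modified NRF2 escapes, enters the nucleus and binds antioxidant response elements (AREs) as a dimer with a small Maf protein. BACH1 is a haem-regulated repressor that dimerises with the same small Mafs and occupies the same elements, while small Maf dimers without a partner that activates transcription can repress them. NRF2 itself is therefore regulated mainly as a protein, and its activity is commonly read from target transcripts such as Nqo1. The measurements here are of RNA only, and in bulk samples fewer cells of a type and less RNA per cell cannot be told apart.

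Short stretches around matches to the core of the antioxidant response element are shown first. The ARE is the sequence that NRF2, BACH1 and the small Mafs share as their binding site, and several of the members hold such a match. RefSeq promoters (build GRCm38.p6) were found for 9 of 9 members, in 11 windows since Maff has 3 annotated starts, and the 250 bases before each start were searched on both strands for the ARE core TGACNNNGC. A match was present for 4 of the 9 members, in 4 of the 11 windows, against 10.2% of the 32851 promoters searched. That share is counted per window and not per gene. The matches are given with up to 10 bases on each side, 5′ to 3′ on the strand of the gene, with the core in capitals. In Mafk and Mafg the core lies on the opposite strand, so the capitals are its reverse complement.
Nfe2l2, chr2:75704885-75704913, minus strand: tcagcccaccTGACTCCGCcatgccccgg
Maff, chr15:79346499-79346527, plus strand: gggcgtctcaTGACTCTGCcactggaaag
Mafg, chr11:120633751-120633779, minus strand: ctctgcaggaGCACGGTCAacccggcgag
Mafk, chr5:139791513-139791535, plus strand: gatcccggaaGCGGTGTCAgtac

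The matches began 240 bases before the RefSeq start in Nfe2l2, 112 in Maff, 222 in Mafg and 13 in Mafk. In the annotation used for exons (GENCODE M21), the Mafk stretch lies in the first exon of Mafk. Those of Nfe2l2 and Mafg overlap exons of the opposite-strand transcripts E030042O20Rik and Gm17586, and that of Maff overlaps no annotated exon. The 2 annotations differ in the start of several members, among them Nfe2l2. Its RefSeq window ends at chr2:75704664, while the GENCODE gene starts at 75704641 on the minus strand, further from the match. The Osgin1 promoter held no ARE core but held the related AP-1 element TGANTCA, which is present in 6.75% of all the promoters and does not count as an ARE core here. The Osgin1 window, at chr8:119436897-119437146, lies inside the GENCODE gene, which begins at 119434124. The AP-1 stretch is shown with the element in capitals.
Osgin1, chr8:119437040-119437066, plus strand: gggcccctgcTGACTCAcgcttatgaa

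The whole first Maff window, at chr15:79346371-79346620 on the plus strand, is given for context because Maff had the largest fold change of the 9 members.
Maff: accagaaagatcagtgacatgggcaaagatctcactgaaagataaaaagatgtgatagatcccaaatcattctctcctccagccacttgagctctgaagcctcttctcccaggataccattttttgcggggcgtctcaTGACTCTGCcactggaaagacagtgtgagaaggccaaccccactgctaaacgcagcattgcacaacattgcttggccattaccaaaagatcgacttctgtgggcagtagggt

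No ARE core was found in the 250 bases before the starts of Keap1, Cul3, Bach1, Nqo1 or Osgin1, or before the other two Maff starts. These matches are a description of letters in short windows. They do not show binding, and an element outside the window would not be seen.

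The libraries held 17905771 to 18293056 estimated counts each, so that 3 counts correspond to 0.164 to 0.168 CPM, the unit of counts relative to library size used throughout. Every member lay above that level in every library. Values are given as CPM after trimmed-mean (TMM) scaling, which set the Cadict libraries apart from the others. Its factors were 1.26 to 1.27 in Ctrl, 1.21 in Cu-Cys and 0.640 to 0.665 in Cadict. With TMM the median log2 fold change of all genes tested was -0.13 for Cadict against Ctrl, and scaling by library totals moved it to -1.08. For the members, values with library totals are therefore given where they turn the direction or lose the call. Of 9 epithelial marker genes, 7 were in the table and their summed level was low in all groups, at 4.23 to 6.25 TPM (a transcript level per length) in Ctrl, 3.51 to 3.98 in Cu-Cys and 11.5 to 13.2 in Cadict, and Epcam was listed at 0 TPM in the Ctrl and Cu-Cys libraries. Markers of T and B cells (2 of 4 in the table), myeloid cells (3 of 4) and endothelial cells (3 of 3) summed to at most 1.31 TPM in any library. The 4 fibroblast markers, led by Col1a2, summed to 261 to 283 TPM in Ctrl, 132 to 138 in Cu-Cys and 21.3 to 26.7 in Cadict. These marker levels moved with the groups, and their part in the results was not tested.

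In Cadict cells, transcripts of 8 of the 9 members were higher than in Ctrl and 1, Keap1, was lower, with TMM. With library totals the split was 5 higher and 1 lower, beside 2161 and 8730 of the 11949 genes tested. In TPM it was 3 higher and 4 lower, beside 1425 and 9542. The small Maf genes Maff and Mafk rose most, by 24.2 and 18.9 times, and Osgin1 rose by 5.31 times. In Cu-Cys cells 6 members were higher than in Ctrl and 3 did not pass the test, and Nqo1 and Osgin1 rose most, by 1.73 and 1.76 times. The calls are from the edgeR quasi-likelihood test with Benjamini-Hochberg adjustment over all genes tested, at an adjusted p of at most 0.05.

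These counts have to be read against the whole table. For Cadict against Ctrl, 40.6% of the genes tested were called higher and 47.1% lower. For Cu-Cys against Ctrl, 22.6% were higher and 22.4% lower, and for Cadict against Cu-Cys, where 8 members were higher and 1 lower, 40.3% were higher and 45.6% lower. That split between the treatments became 4 higher and 3 lower with library totals, beside 2062 and 8598 of the 11949 genes tested. In TPM it was 3 and 4, beside 1367 and 9271. At the stricter threshold that the study states, a fold change of at least 2 with an adjusted p of at most 0.001, 5 members were higher and 1 lower for Cadict against Ctrl, against a background of 20.7% and 27.1%. With DESeq2, by its size factors or its Wald test, 8 were higher and 1 lower at this threshold, and with library totals 3 were higher and 1 lower. The background at this threshold is given here for TMM only, so these counts cannot be set against a share of all genes. For Cadict against Cu-Cys 4 were higher and 1 lower, against 18.6% and 23.6%. For Cu-Cys against Ctrl 0 members passed the stricter threshold in edgeR, where the background was 0.167% higher and 1.47% lower. The DESeq2 Wald test also gave 0, and 6 members had an unadjusted edgeR p under 0.05. The CPM ranges of the groups did not overlap for 9 of 9 members in each comparison, but the same was true of 87.5% of all genes tested for Cadict against Ctrl, of 61.2% for Cu-Cys against Ctrl, and of 85% between both treatments. The median log2 fold change over the members was 1.19, 0.45 and 0.96 in the same order, beside -0.13, 0.0067 and -0.10 over all genes tested. The comparisons share libraries, so they are not independent of each other.

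**Figure D1:**
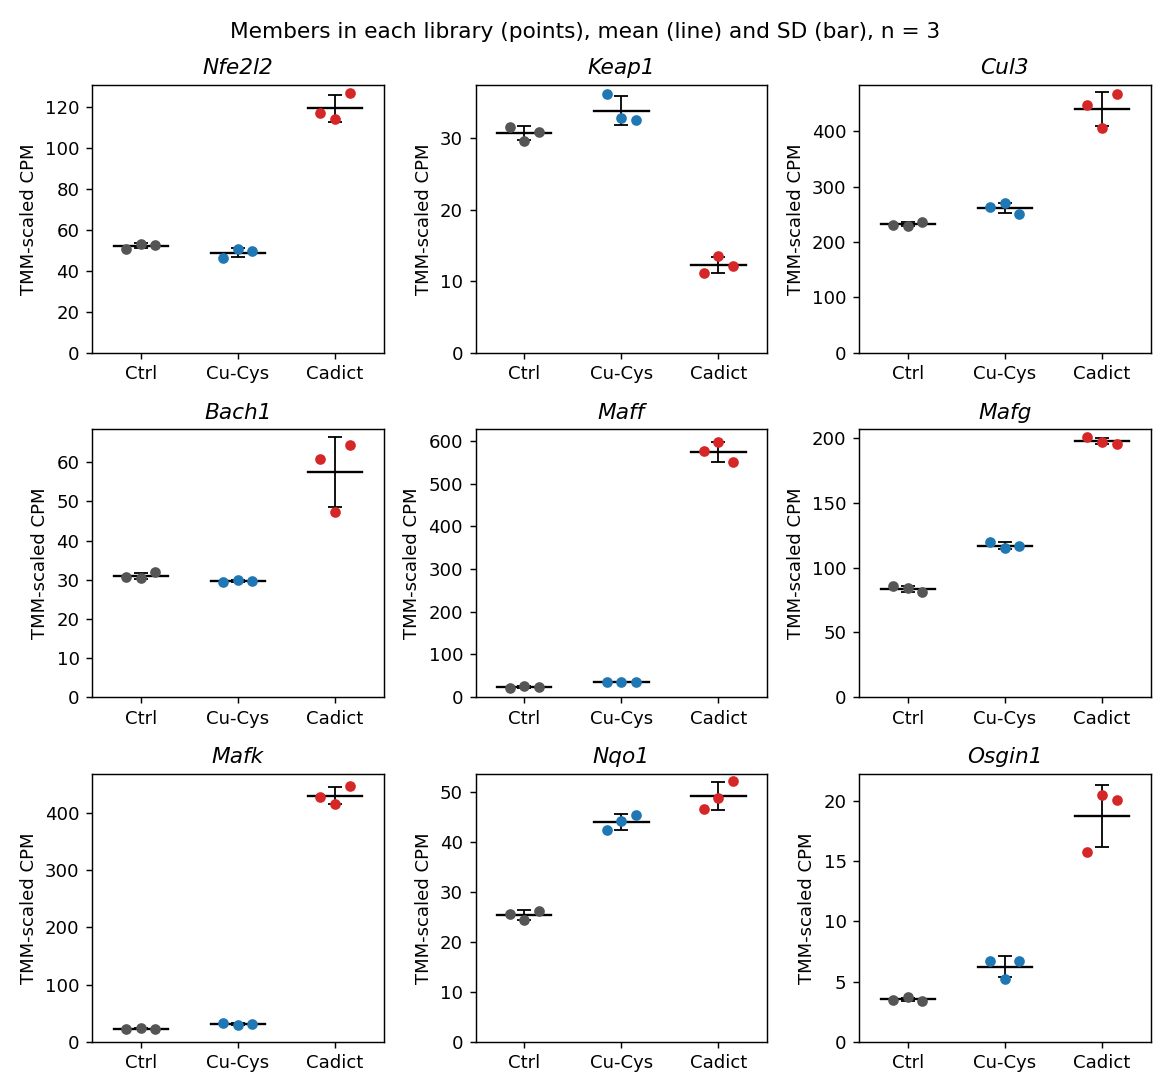
TMM-scaled CPM of the 9 members (vertical axes, each from 0) in the 3 Ctrl, 3 Cu-Cys and 3 Cadict libraries. Points are libraries, lines are group means and bars are SD (n = 3). Keap1 is the only member whose Cadict libraries lie below the Ctrl libraries on this scale, while Maff and Mafk in Cadict lie far above both other groups.

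The factor itself is encoded by Nfe2l2 (Entrez 18024), annotated at chr2:75675513-75704641 in GRCm38. It stood at 50.8, 53.3 and 52.8 CPM in the 3 Ctrl libraries, at 46.4, 50.6 and 49.5 in Cu-Cys, and at 117, 114 and 127 in Cadict. The Cadict libraries were on this scale all more than double the highest library of either other group, while the Cu-Cys libraries lay just below those of Ctrl. Against Ctrl, Nfe2l2 rose with Cadict by 1.19 ± 0.06 on the log2 scale (SE, adjusted p = 1.47e-11), higher than 82.5% of the genes tested. Scaled by library totals this was 0.24 (adjusted p = 0.00201), and in deposited TPM it turned to -0.12 and did not pass (adjusted p = 0.242). With Cu-Cys the change was -0.10 ± 0.06 (adjusted p = 0.177), which did not pass the test, although it passed at -0.17 with library totals (adjusted p = 0.0418). In TPM, which can be compared between genes, Nfe2l2 stood at 51.5 ± 0.56 in Ctrl, 43.5 ± 2.06 in Cu-Cys and 47.8 ± 6.98 in Cadict (SD, n = 3).

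Keap1 (Entrez 50868, chr9:21229730-21239361), the sensor and substrate adaptor, moved the other way. Its level was 31.6, 29.6 and 31.0 CPM in Ctrl, 36.2, 32.8 and 32.5 in Cu-Cys and 11.2, 13.5 and 12.1 in Cadict. No Cadict library came within 2-fold of any Ctrl or Cu-Cys library. Keap1 fell by 1.32 on the log2 scale with Cadict against Ctrl (SE 0.08, adjusted p = 3.86e-10). It was lower under all 10 alternative settings, with values from -2.53 to -1.21, and it fell by 1.46 against Cu-Cys (adjusted p = 1.27e-10). With Cu-Cys against Ctrl it stood 0.14 ± 0.07 higher and did not pass (adjusted p = 0.0984), while it passed when only Ctrl and Cu-Cys were fitted (adjusted p = 0.0469) and turned to -0.02 in TPM. In the mouse annotation 510 of the 4693 exon bases of Keap1 overlap the antisense gene Gm16754 and 7.78% of its 50-base stretches occur in another gene. The sources used here do not say whether the counting used strand, so reads of the overlap could belong to either gene.

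Cul3 (Entrez 26554, chr1:80264923-80340480), the scaffold of the ligase, was the most abundant member per length in Ctrl. It was counted at 229.9, 229 and 236 CPM in Ctrl, 264, 269.9 and 251 in Cu-Cys, and 447, 406 and 467 in Cadict, with no overlap between groups. It rose with Cadict by 0.92 ± 0.06 (adjusted p = 2.28e-10), but scaled by library totals the value was -0.03 and in TPM -0.37, so that the direction depends on the scaling. With Cu-Cys it rose by 0.17 ± 0.06 (adjusted p = 0.0192). With library totals the Cu-Cys value was 0.10 and did not pass (adjusted p = 0.18). The call was also lost when Ctrl replicate 1, Ctrl replicate 2, Cu-Cys replicate 1 or Cu-Cys replicate 2 was left out, with adjusted p up to 0.0766.

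Bach1 (Entrez 12013, chr16:87698945-87733346), the repressor that competes for the same elements, stood at 30.6, 30.4 and 32.0 CPM in Ctrl, 29.4, 29.95 and 29.6 in Cu-Cys and 60.8, 47.3 and 64.4 in Cadict. The Cadict libraries were all above the others, and Cadict replicate 2 was the lowest of them. Bach1 rose with Cadict by 0.89 ± 0.09 (adjusted p = 9.74e-08), which turned to -0.06 with library totals and -0.36 in TPM. Its difference with Cu-Cys was -0.06 ± 0.09 and did not pass (adjusted p = 0.591).

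The small Mafs are short bZIP proteins without an activation domain of their own, and they are the obligate DNA-binding partners of both NRF2 and BACH1. Maff (Entrez 17133, chr15:79346621-79359076) was at 22.2, 25.2 and 23.9 CPM in Ctrl and at 34.9, 35.6 and 35.3 in Cu-Cys. In Cadict it reached 576, 598 and 549.98 CPM. It rose by 0.57 ± 0.06 with Cu-Cys (adjusted p = 4.71e-06) and by 4.60 ± 0.06 with Cadict (adjusted p = 2.55e-17), the latter above 99.0% of the genes tested. Mafk (Entrez 17135, chr5:139791513-139802653) showed nearly the same pattern. Its libraries were at 22.4, 24.4 and 21.8 CPM in Ctrl, 32.6, 29.9 and 31.3 in Cu-Cys and 428, 417 and 447 in Cadict. The rise was 0.45 ± 0.06 with Cu-Cys (adjusted p = 5.17e-05) and 4.24 ± 0.06 with Cadict (adjusted p = 4.51e-17). Mafk shares 169 of its 3901 exon bases with the opposite-strand gene Tmem184a. Both genes rose with Cadict under all 10 alternative settings, with 3.25 as the lowest value for Maff and 2.86 for Mafk. Their rises with Cu-Cys also held under all 10 settings, with lowest values of 0.42 and 0.31.

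Mafg (Entrez 17134, chr11:120625117-120633600), the most abundant small Maf of Ctrl cells per length, had a smaller fold change with Cadict than Maff and Mafk under each scaling tried. It stood at 85.9, 84.1 and 81.4 CPM in Ctrl, 119.7, 115 and 117 in Cu-Cys and 201, 197 and 196 in Cadict. Mafg rose with Cu-Cys by 0.48 ± 0.05 (adjusted p = 1.64e-06) and with Cadict by 1.24 ± 0.05 (adjusted p = 8.33e-13). With library totals the Cadict value was 0.29 and still passed, and in TPM it was 0.07 and did not. Against Cu-Cys, Cadict was 0.76 higher with TMM, but -0.13 with library totals and -0.29 in TPM. Of its 5613 exon bases, 124 overlap the same-strand gene Sirt7.

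The small Maf pool therefore changed in make-up as well as in size. The summed TPM of the 3 genes was 85.98 ± 2.48 in Ctrl, 111.9 ± 1.10 in Cu-Cys and 489 ± 39.5 in Cadict (SD, n = 3). Mafg made up 41.5% ± 1.496 of it in Ctrl, 41.3% ± 0.38 in Cu-Cys and 7.69% ± 0.35 in Cadict. Maff went from 36.3% ± 1.40 in Ctrl and 37.5% ± 0.57 in Cu-Cys to 62.6% ± 1.62 in Cadict, and Mafk from 22.2% ± 0.65 and 21.3% ± 0.82 to 29.7% ± 1.43. With Cu-Cys the summed level lay above Ctrl in each library, while the mean shares of Maff and Mafg moved by less than 1 SD of the Ctrl libraries. Shares within a library do not depend on how libraries are scaled, but they do depend on the unit. Counts are not corrected for length and give more weight to Mafg. Mean counts of Mafg, Maff and Mafk were 1932, 548 and 527 in Ctrl and 2319, 6731 and 5050 in Cadict.

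**Figure D2:**
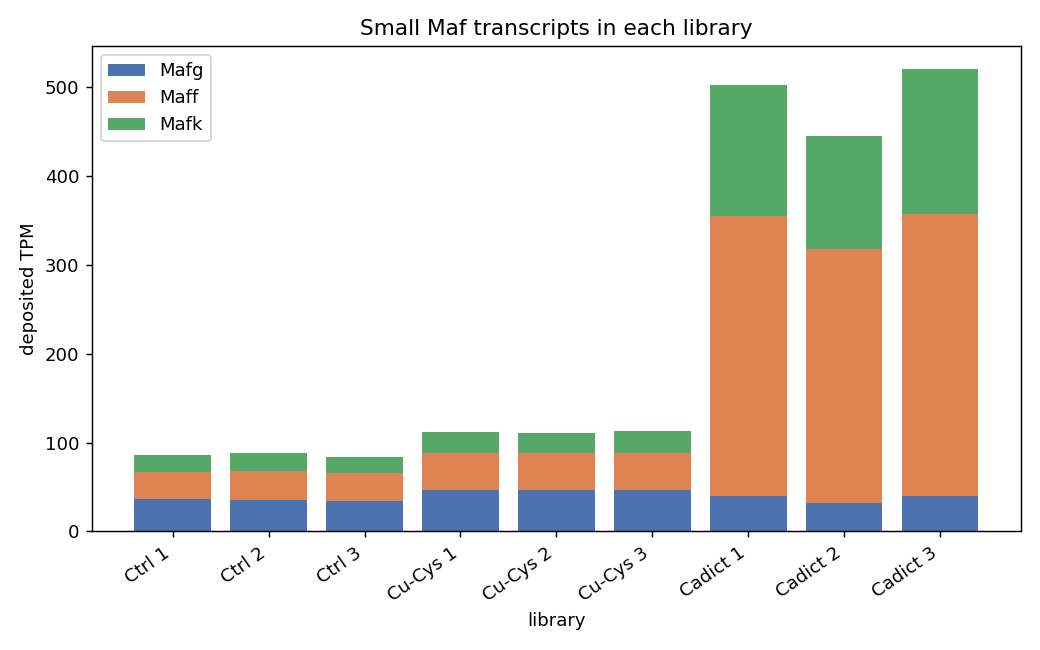
Deposited TPM of Mafg, Maff and Mafk stacked in each of the 9 libraries (vertical axis from 0). The stacks reach 489 TPM on average in Cadict against 85.98 in Ctrl and 111.9 in Cu-Cys, and Mafg takes up 7.69% of the Cadict stacks.

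Of the targets, Nqo1 (Entrez 18104, chr8:107388225-107403206) encodes a quinone reductase whose ARE is the classical reporter of NRF2 activity. It was at 25.4, 24.4 and 26.2 CPM in Ctrl, 42.3, 44.2 and 45.4 in Cu-Cys and 46.5, 48.8 and 52.1 in Cadict. Both treated groups stood clear of Ctrl, and the Cu-Cys and Cadict libraries nearly touched. With Cu-Cys, Nqo1 rose by 0.79 ± 0.06 (adjusted p = 2.24e-07), more than 98.6% of the genes tested, and it held under all 10 alternative settings with values from 0.67 to 0.82. With Cadict it rose by 0.96 ± 0.06 (adjusted p = 8.41e-10), which placed it above 78.1% of the genes tested. With library totals the Cadict value was 0.00 (adjusted p = 0.97) and in TPM -0.32 (adjusted p = 0.00327).

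For Nqo1 the direction between both treatments rested on the scaling, and with TMM the call rested on single libraries. Cadict was higher than Cu-Cys by 0.16 ± 0.06 (adjusted p = 0.0236), and this call was lost without Cu-Cys replicate 1, Cu-Cys replicate 2 or Cadict replicate 3, where it was 0.11 with adjusted p = 0.118, and also with either other filter on low counts. With library totals the sign turned to -0.72 (adjusted p = 2.01e-08) and in TPM to -0.99 (adjusted p = 1.02e-07). In TPM, Nqo1 stood at 42.1 ± 1.61 in Ctrl, 67.6 ± 2.42 in Cu-Cys and 33.7 ± 4.44 in Cadict.

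Osgin1 (Entrez 71839, chr8:119434124-119446256) encodes an oxidative stress-induced growth inhibitor and was the least abundant member in Ctrl. Its libraries were at 3.50, 3.68 and 3.40 CPM in Ctrl, 6.69, 5.21 and 6.75 in Cu-Cys and 15.8, 20.5 and 20.1 in Cadict. The 3 groups were fully separated. It rose by 0.82 ± 0.14 with Cu-Cys (adjusted p = 3.52e-04) and by 2.41 ± 0.13 with Cadict (adjusted p = 6.17e-11), and Cadict exceeded Cu-Cys by 1.59 ± 0.12 (adjusted p = 4.16e-09). All 3 directions held under all 10 alternative settings, with lowest values of 0.57, 0.95 and 0.39. Unlike Nqo1, Osgin1 thus rose further from Cu-Cys to Cadict on every scale tried.

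**Figure D3:**
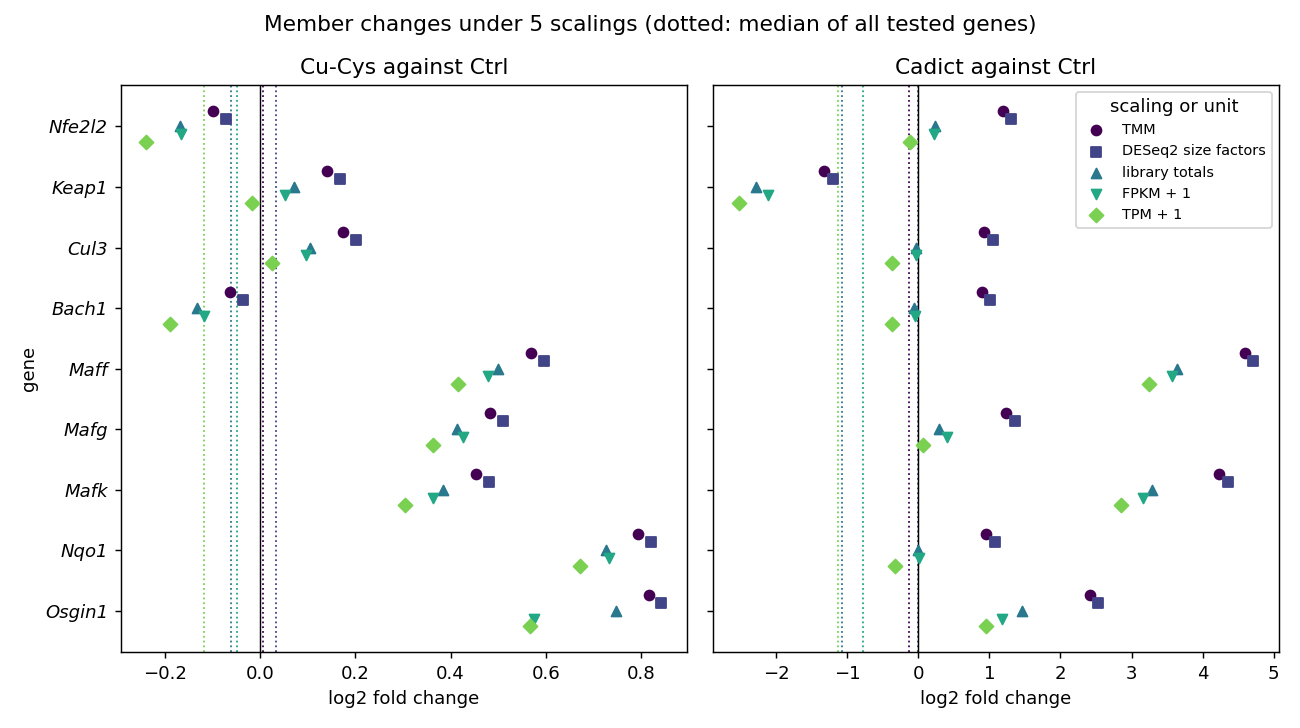
Log2 fold change of each member against Ctrl (horizontal axis) for Cu-Cys and Cadict, with TMM, DESeq2 size factors, library totals, FPKM + 1 and TPM + 1 as marker shapes, and the median of all genes tested under each as a dotted line. For Cadict the scalings spread each gene by more than 1 log2 unit, and Keap1, Maff, Mafk and Osgin1 stay clear of 0 under all 5.

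Across these settings, 5 of the 9 members kept their direction in all 10 alternatives for Cadict against Ctrl, and 4 of them, Keap1, Maff, Mafk and Osgin1, also passed the test in all 10. For Cu-Cys against Ctrl 8 kept their direction, all but Keap1, and 5 passed in all 10: Maff, Mafg, Mafk, Nqo1 and Osgin1. The share of all genes that passed in all 10 is not given here, so these counts have no background. In the main fit 40.6% of the genes tested were higher and 47.1% lower with Cadict, and 22.6% and 22.4% with Cu-Cys.

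Ratios of members within a library do not depend on the scaling of libraries. The ratio of Nfe2l2 to Keap1 counts was 1.61, 1.80 and 1.71 in Ctrl, 1.28, 1.54 and 1.52 in Cu-Cys and 10.4, 8.45 and 10.5 in Cadict. The mean log2 ratio differed from Ctrl by 2.52 in Cadict and by -0.24 in Cu-Cys. An exact two-sided permutation test over the 1680 assignments of the 9 libraries to 3 groups, which tests the groups together, gave p = 0.00357, which is the smallest it can give, and 0.00536 after adjustment over the 3 ratios tested. This shows unequal change of both transcripts and not which of them changed.

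The ratio of Nfe2l2 to the summed small Maf counts moved in the opposite direction. It was 0.389, 0.399 and 0.416 in Ctrl, 0.248, 0.280 and 0.270 in Cu-Cys and 0.0971, 0.0942 and 0.106 in Cadict. On the log2 scale this is -0.59 with Cu-Cys and -2.02 with Cadict against Ctrl. The same permutation test over the 3 groups together gave p = 0.00357, adjusted 0.00536, and a pair of groups alone cannot go below 0.1. The groups did not overlap, and both treatments lay below Ctrl. Summed counts are not corrected for length, so a longer transcript such as Mafg weighs more in them. In TPM the mean ratio was 0.599 in Ctrl, 0.389 in Cu-Cys and 0.0974 in Cadict.

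The ratio of Nfe2l2 to Bach1 changed least, from 1.66, 1.75 and 1.65 in Ctrl and 1.58, 1.69 and 1.67 in Cu-Cys to 1.92, 2.41 and 1.97 in Cadict. Its log2 difference for Cadict against Ctrl was 0.31. The permutation test over the 3 groups together gave p = 0.0214, adjusted 0.0214. Without Cadict replicate 2, the library with the low Bach1 value, it was 0.20, and without Cu-Cys replicate 1 the p over the 3 groups was 0.05.

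**Figure D4:**
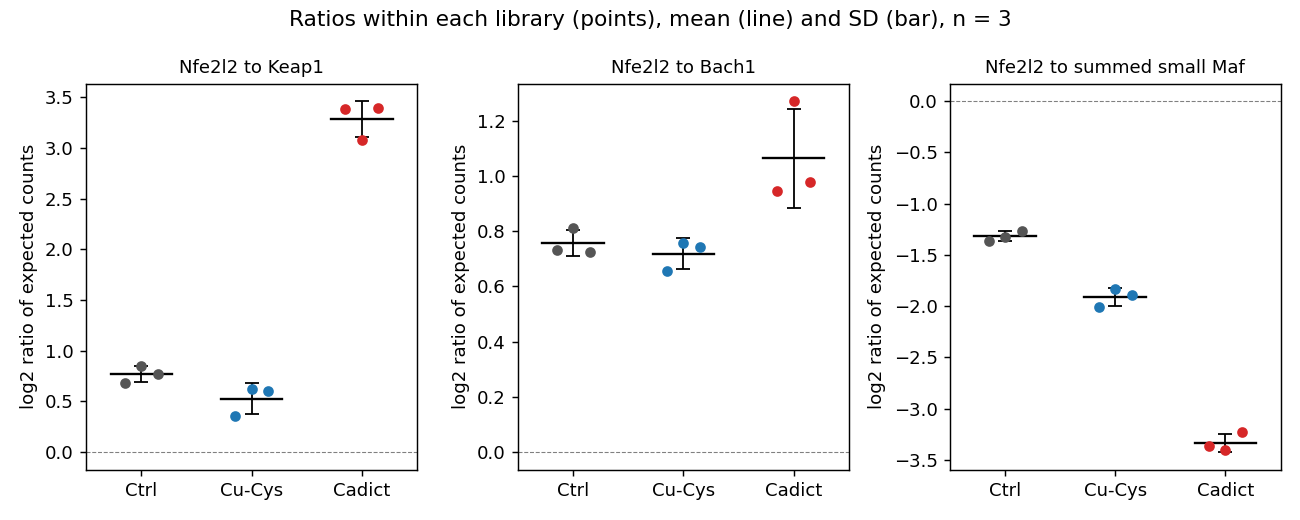
Log2 ratio of estimated counts within each library (vertical axes) for Nfe2l2 to Keap1, Nfe2l2 to Bach1 and Nfe2l2 to the summed small Mafs. Points are libraries, lines are means and bars are SD (n = 3), and the dashed line marks equal counts. The Cadict points lie highest in the first and second panel and lowest in the third.

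In deposited TPM the order of the members was Cul3, Nfe2l2, Nqo1, Mafg, Maff, Keap1, Mafk, Bach1 and Osgin1 in Ctrl, with no overlap between neighbours in that order. Cul3 led at 129.6 ± 1.98 and Osgin1 closed the order at 4.55 ± 0.19. In Cu-Cys, Nqo1 and Mafg (46.2 ± 0.12) moved ahead of Nfe2l2, whose libraries overlapped those of Maff (41.9 ± 0.47), and Mafk (23.8 ± 1.14) and Keap1 (21.9 ± 1.46) also overlapped. In Cadict, Maff (306 ± 17.8) and Mafk (145 ± 18.02) came before Cul3 (101 ± 15.6), and Keap1 fell to the end of the order at 3.01 ± 0.28. Mafg (37.6 ± 4.48) and Nqo1, and Osgin1 (9.81 ± 1.44) and Bach1 (9.25 ± 2.17), did not differ beyond their spread there.

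The rest of the pathway was followed in a list of 35 known NRF2 target genes, of which 31 were tested. With Cadict 27 of them were higher than in Ctrl, 2 lower and 2 did not pass, with a median log2 fold change of 1.74, beside 40.6% and 47.1% of all genes tested. With Cu-Cys 24 were higher, 2 lower and 5 did not pass, with a median of 0.48, beside 22.6% and 22.4%. From Cu-Cys to Cadict 26 were higher and 3 lower, with a median of 1.204, beside 40.3% and 45.6%. At the study's threshold 23 were higher and 1 lower with Cadict, beside 20.7% and 27.1%, and 2 were higher with Cu-Cys, beside 0.167%. The Cadict split was 23 higher and 7 lower with library totals, beside 2161 and 8730 of the 11949 genes tested. In TPM it was 16 and 8, beside 1425 and 9542. From Cu-Cys to Cadict it was 20 and 6 with library totals, beside 2062 and 8598. In TPM it was 11 and 12, beside 1367 and 9271.

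Hmox1, which encodes haem oxygenase and is repressed by BACH1, had the largest change in the list with Cadict. It averaged 23.2 ± 1.21 CPM in Ctrl, 109 ± 12.2 in Cu-Cys and 18648 ± 854 in Cadict, or 2.23 and 9.65 above Ctrl on the log2 scale. Sqstm1 encodes the autophagy adaptor p62, which binds KEAP1. It rose from 365 ± 8.57 CPM in Ctrl to 547 ± 10.8 with Cu-Cys and 10251 ± 212 with Cadict, although 15.5% of its 50-base stretches occur in other genes. Txnrd1, thioredoxin reductase, averaged 209.7 ± 2.54, 358 ± 4.37 and 3113 ± 234 CPM, a rise of 3.89 with Cadict. Among the genes named from the target list these were the steepest increases, with adjusted p of at most 8.57e-17 in edgeR for Cadict against Ctrl.

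The subunits of glutamate-cysteine ligase, the first enzyme of glutathione synthesis, differed in how far each treatment moved them. The modifier subunit Gclm was at 42.9 ± 3.43 CPM in Ctrl, 78.6 ± 4.81 in Cu-Cys and 485 ± 20.9 in Cadict. The catalytic subunit Gclc was at 37.3 ± 1.40, 82.4 ± 3.07 and 98.8 ± 7.92, a rise of 1.14 with Cu-Cys and 1.41 with Cadict, although the Cadict value was 0.08 in TPM and did not pass. From Cu-Cys to Cadict the difference was 2.63 for Gclm, which stayed higher at 1.74 with library totals, and 0.26 for Gclc, which turned to -0.62 with library totals and -0.89 in TPM. The list was not uniform: Aldh3a1, an aldehyde dehydrogenase, fell by 1.76 with Cadict and by 0.58 with Cu-Cys, and Cbr3, a carbonyl reductase, fell by 0.86 with Cadict and rose by 0.42 with Cu-Cys, a rise that did not pass with library totals (0.36). Ephx1, an epoxide hydrolase, fell by 0.61 with Cu-Cys and rose by 0.74 with Cadict, which turned to -0.21 with library totals and -0.55 in TPM. Gsr, glutathione reductase, rose by 0.55 with Cu-Cys, while its Cadict value of 0.08 did not pass and became a fall of -0.87 with library totals and -1.21 in TPM. These 4 genes lay outside the naming rule and were chosen after their values were seen.

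**Figure D5:**
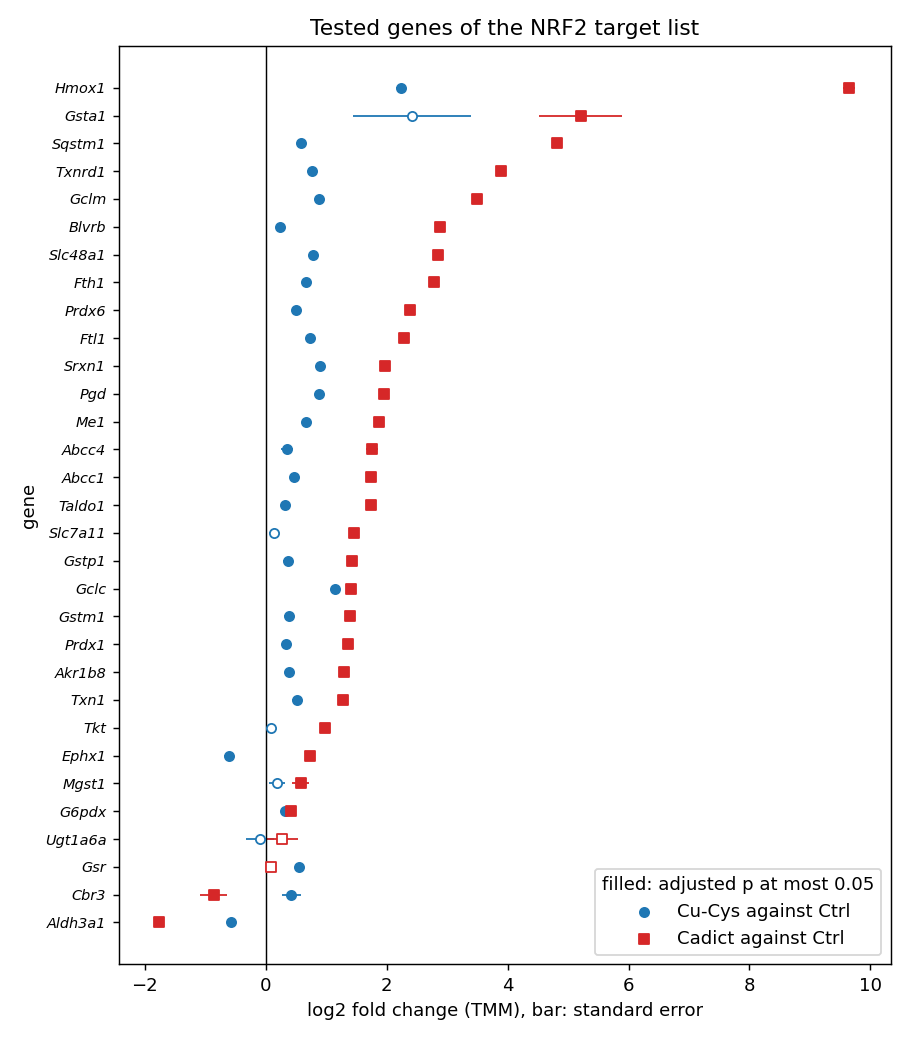
Log2 fold change against Ctrl (horizontal axis, TMM) of the 31 tested NRF2 target genes for Cu-Cys (circles) and Cadict (squares), with standard errors as bars and filled symbols for an adjusted p of at most 0.05. Most genes lie right of 0 for both treatments, Hmox1 lies at 9.65 for Cadict, and Aldh3a1 lies left of 0 for both.

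A list of 30 names of other proteins that act on NRF2, KEAP1 or the response element held 27 tested genes. With Cadict 11 were higher, 12 lower and 4 did not pass, with a median of 0.08. Of all genes tested 40.6% were higher and 47.1% lower. With library totals the split was 3 higher and 22 lower, beside 2161 higher and 8730 lower of the 11949 genes tested. With Cu-Cys 3 were higher, 6 lower and 18 did not pass, with a median of -0.03, beside 22.6% and 22.4% of all genes tested. From Cu-Cys to Cadict 12 were higher and 12 lower, beside 40.3% and 45.6%. With library totals these were 5 and 21, beside 2062 and 8598 of the 11949 genes tested. Sesn2, which encodes sestrin 2, averaged 10.7 ± 0.82 CPM in Ctrl, 7.63 ± 1.17 in Cu-Cys and 113 ± 10.9 in Cadict, a rise of 3.39 with Cadict and a fall with Cu-Cys (-0.49). Rbx1, the RING subunit that completes the CUL3 ligase, was at 56.2 ± 2.34, 69.7 ± 2.21 and 205 ± 20.0 CPM, a rise of 1.87 with Cadict.

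Dpp3 and Amer1 encode KEAP1-binding proteins of opposite effect, since DPP3 displaces NRF2 from KEAP1 while AMER1 promotes its ubiquitination, and both fell with Cadict. Dpp3 was at 64.1 ± 0.64 CPM in Ctrl, 68.3 ± 1.78 in Cu-Cys and 17.2 ± 0.96 in Cadict (-1.90). Amer1 was at 19.5 ± 0.64, 14.7 ± 1.25 and 5.09 ± 0.15 CPM (-1.93). Among the genes named from this regulator list, Usp11, a deubiquitinase of NRF2, had the largest Cu-Cys change. It stood at 12.4 ± 0.31 CPM in Ctrl, 6.37 ± 0.61 in Cu-Cys and 17.3 ± 0.31 in Cadict, or -0.96 with Cu-Cys and 0.49 with Cadict, of which the Cadict value turned to -0.47 with library totals and -0.71 in TPM.

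The genes whose pattern over the 9 libraries was most like those of Nfe2l2 and Nqo1 were found by the root mean square difference of centred log2 CPM among 8550 genes with a mean of at least 10 CPM. For Nfe2l2 they were Fermt2 (0.034), Rab10 (0.040) and Nptn (0.040), which stood 1.17, 1.19 and 1.25 above Ctrl with Cadict (TMM) and -0.11, -0.07 and -0.04 with Cu-Cys. For Nqo1 they were Slc39a6 (0.030), Enc1 (0.084) and Spata5 (0.108), with 0.77, 0.72 and 0.57 for Cu-Cys and 0.94, 0.91 and 0.81 for Cadict. The libraries fall into 3 groups that share scaling and depth, so such likeness is a description over 9 points.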

How the data were processed

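RNA was sequenced from 9 libraries of MC38 cells. The submitters' processing notes list HISAT2 2.1.0, Bowtie2 2.3.4.3 and RSEM 1.3.1 and the builds GRCh38.p13 and GRCm39, without roles, and the deposited table carries no coordinates. The authors made and deposited estimated counts per gene, FPKM and TPM values for each library, and a signal column of counts divided by their size factors. Columns of group averages are the authors' means and were not used, and no column of their own comparisons was used. The columns named CTL, CC and CCGE were taken as Ctrl, Cu-Cys and Cadict, the last from its components copper-cystine, GOx and GE11. No other per-sample column was left unassigned (0 columns).

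Expected counts were rounded and tested in R 4.3.3 with edgeR 4.0.16 (filterByExpr, TMM, quasi-likelihood test, all 3 groups in 1 fit, Benjamini-Hochberg over 11949 genes). The study states a DESeq package. SE was taken as the absolute log2 fold change divided by the square root of F. Alternatives were DESeq2 1.42.0 size factors and its Wald test on the groups compared, library totals, other filters, the replicate block, only the groups compared, leave-one-out fits, and limma 3.58.1 on log2 of FPKM or TPM plus a pseudocount of 1 (FPKM also 0.1), which understates changes of low genes. Ratios were tested by exact permutation. The procedure was tested on simulated data in which a small part of the genes changed and the fitted TMM factors were kept. That simulation could not test the choice of scaling. The members and gene lists were chosen with earlier results of these data known. Named genes were the members, the 4 largest changes with Cadict and 2 with Cu-Cys in each list among genes past the test with a mean of at least 10 CPM, and the 3 nearest patterns to Nfe2l2 and Nqo1. Positions and overlaps are from GENCODE M21 (GRCm38), promoters from RefSeq (GRCm38.p6). Depth was 17905771 to 18293056 counts per library, and limits from counts cover counting error only.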

Additional observations from a re-analysis of the deposited data

How the results depend on the processing

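Scaling and unit decided the direction of several Cadict values. Against Ctrl, Bach1 and Cul3 were -0.058 and -0.027 with library totals, -0.048 and -0.031 with FPKM + 1, -0.055 and -0.031 with FPKM + 0.1, and -0.36 and -0.37 in TPM, where Nfe2l2 (-0.12) and Nqo1 (-0.32) also turned. Against Cu-Cys, Cul3, Mafg and Nqo1 were -0.13, -0.13 and -0.72 with library totals, -0.13, -0.028 and -0.72 with FPKM + 1, -0.13, -0.029 and -0.74 with FPKM + 0.1, and -0.40, -0.29 and -0.99 in TPM, where Bach1 was -0.17. Keap1 with Cu-Cys was -0.016 in TPM. Members past the study's threshold went from 6 to 9 for Cadict against Ctrl with DESeq2 size factors and the DESeq2 Wald test, to 4 with library totals, FPKM + 1 and FPKM + 0.1, and to 3 in TPM, and from 5 to 3 for Cadict against Cu-Cys with library totals, FPKM + 1, FPKM + 0.1 and TPM. The share of all genes past that threshold is given here for TMM only. The regulator list with Cu-Cys went from 9 to 15 genes past the test when only Ctrl and Cu-Cys were fitted. In that fit 3369 genes were higher and 3368 lower of 11728, and in the main fit 2701 and 2680 of 11949. The median of all genes for Cadict against Ctrl was -0.01 with DESeq2 size factors, -1.08 with library totals, -0.78 with FPKM + 1, -1.04 with FPKM + 0.1 and -1.13 in TPM, and the split of calls moved from 4857 higher and 5627 lower to 2161 and 8730 with library totals.

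Leaving out 1 library gave 9 to 9 members past the test for Cadict against Ctrl (6 to 7 at the study's threshold), 5 to 6 for Cu-Cys against Ctrl and 8 to 9 for Cadict against Cu-Cys (5 to 6). The share of all genes in these fits is not given here, so these counts cannot be set against a background. Library numbers did not pair the samples (correlations of deviations -0.19 to 0.15 for equal numbers and -0.24 to 0.30 for unequal ones), and the replicate block gave 9, 6 and 9 members past the test and changed no member's call. With the block 4835 of the 11949 genes were higher and 5582 lower for Cadict against Ctrl. For Cu-Cys against Ctrl these were 2609 and 2532, and for Cadict against Cu-Cys 4788 and 5400. Depth limits Osgin1 most among the members, since it had the lowest level in Ctrl.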

Other observations

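The deposited counts and FPKM together imply an effective transcript length for each gene and library. For Keap1 this was 2962 ± 19.1 bases in Ctrl, 2994 ± 45.7 in Cu-Cys and 3533 ± 84.3 in Cadict (SD, n = 3), and for Mafg 5003 ± 57.9, 4903 ± 110.0 and 4576 ± 128. For Nfe2l2 it was 2164 ± 5.85, 2168 ± 12.2 and 2177 ± 3.24. These values were looked at after the data had been seen and were not tested. TPM and FPKM are corrected for length, and counts are not. Whether the differences in implied length affect the count-based values of Keap1 and Mafg was not tested.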
